A study of Caenorhabditis elegans with 2 samples.

Results

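Peaks of the zinc finger protein KLU-1 were examined at 4 genes of the Wnt and TGF-beta pathways of Caenorhabditis elegans, lit-1, wrm-1, daf-5 and sma-9. The genes were chosen by their peaks: each had a summit in the thresholded peak list made from both replicates, between 5000 bp upstream of its first transcript start and its end. They are 4 of 19973 protein-coding genes, and 131 of the 128328 ranked peaks of the study had their summits in these windows. Because the presence of a peak selected the genes, the presence, strength and position of those peaks are given as a description without a test. The study held 1 group with 2 biological replicates, whole animals at the fourth larval stage (L4, 47 h) grown from first-stage larvae starved after bleaching. Both replicates were of strain RW12326, in which a TY1, EGFP and 3xFLAG tag was inserted at klu-1 (ZK337.2) by CRISPR, so the tagged protein was made from its own locus. Chromatin was sheared by sonication and recovered with an antibody against GFP. Whole animals were used, so a peak does not show in which cells the protein was bound, and neither untagged animals nor an input library were analysed here.

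In Wnt signalling, secreted ligands bind Frizzled receptors and change the activity of beta-catenins and of the transcription factor TCF. In many asymmetric divisions of the worm, the beta-catenin WRM-1 and the Nemo-like kinase LIT-1 act as a pair that lowers the nuclear level of POP-1, the worm TCF. Worm TGF-beta ligands act in separate branches, one of which (DAF-7) controls entry into the dauer stage and another (DBL-1) body size. DAF-5, a relative of the vertebrate Ski and Sno proteins, works with the Smad DAF-3 in the DAF-7 branch. SMA-9, a large zinc finger protein related to fly Schnurri, works with the Smads of the DBL-1 branch. None of the 4 is a ligand or a receptor: all act inside the cell.

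A signal is the strength that the authors' peak caller gave a peak, on a scale that is not stated, and ranks are by signal. The score is the authors' rescaled irreproducible discovery rate (IDR), at most 1000, and the lowest score in each thresholded list was 830. Of 128328 peaks in the larger ranked list, 1043 were in the thresholded list, with a median signal of 78.8 against 20.6 over all ranked peaks. A second pair of lists, the conservative one, held 988 thresholded peaks, and replicates 1 and 2 alone gave 566 and 378. Read counts are not in these lists, so depth was unknown. Of the 1043 peaks, 291 overlapped a thresholded peak of both replicates and 437 of neither.

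The sequences at the summits are shown because they are where each gene was marked, and 3 of the 5 carry letter patterns described further on. Each is the 101 bp centred on a summit, read on the plus strand of WBcel235 (ce11). Capitals mark matches to 3 patterns, which are GAGAG (on the minus strand, so printed as CTCTC), then the word GTCTG, and in the daf-5 window also CTTTGT. The first is from chrIII:5722008-5722108, the second from chrIII:13717644-13717744, the next from chrIII:13722530-13722630 and chrII:14044385-14044485, and the last from chrX:10768423-10768523.
wrm-1 upstream: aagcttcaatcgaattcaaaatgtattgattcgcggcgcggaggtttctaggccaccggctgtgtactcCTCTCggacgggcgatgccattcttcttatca
lit-1 internal promoter: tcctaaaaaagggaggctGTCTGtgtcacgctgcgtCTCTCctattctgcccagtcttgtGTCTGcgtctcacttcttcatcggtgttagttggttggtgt
lit-1 exon: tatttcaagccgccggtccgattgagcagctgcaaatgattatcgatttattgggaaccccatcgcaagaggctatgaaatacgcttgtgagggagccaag
daf-5 intron: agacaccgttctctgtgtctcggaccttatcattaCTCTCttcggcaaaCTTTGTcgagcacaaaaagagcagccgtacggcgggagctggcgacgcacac
sma-9 upstream: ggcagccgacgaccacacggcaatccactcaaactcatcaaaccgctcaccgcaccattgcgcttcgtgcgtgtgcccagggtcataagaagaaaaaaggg

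The beta-catenin gene wrm-1 had the strongest peak of the 4 genes, in the intergenic sequence upstream of it. The gene (WBGene00006943) lies on the plus strand at III:5722850 to 5727115, and the peak spanned III:5721938 to 5722177 with its summit 792 bp upstream of the first start. Its signal was 153.6 in the list from both replicates, 82.2 in replicate 1 and 66.7 in replicate 2. It was the only one of the 4 genes with a thresholded peak in both single replicates. It ranked 115 of 1043, 117 of 566 and 145 of 378, or within the top 11.0%, 20.7% and 38.4% of them. The score was 1000 in all 4 ranked lists, and the replicate summits lay 18 bp to the left and 7 bp to the right of the pooled one.

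The wrm-1 peak stood alone in its window. The next of 15 ranked peaks had a signal of 45.3, so the strongest was 3.39 times the second, and the median of the 15 was 21.7. The annotation has 2 wrm-1 transcript starts 789 bp apart, and the ranked peaks closest to them had signals of 21.7 and 12.02. The nearest other coding gene on the left, arf-1, ended 4472 bp away, and egg-1 on the right began 6122 bp away. No protein-coding gene start was closer to the summit than that of wrm-1.

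The kinase gene lit-1 had the weakest entry, and its peak depended on which list was read. The gene (WBGene00003048) lies on the plus strand at III:13701991 to 13724404 and has 7 transcripts with 7 start sites. In the larger thresholded list its peak was at III:13722460 to 13722699, in a 635 bp coding exon (III:13722263 to 13722897) present in all 7 transcripts, exon 10 of 11 in W06F12.1d.2. The signal there was 53.3, rank 1009 of 1043, with 18.8 in replicate 1 and 22.9 in replicate 2. In the single-replicate ranked lists those signals ranked 13247 of 65693 and 10301 of 95500. This was 3184 bp downstream of the closest lit-1 start, that of W06F12.1c.1.

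In the conservative thresholded list lit-1 was represented by another peak, at III:13717574 to 13717813. Its summit lay 271 bp upstream of the start of transcript W06F12.1b.1, which makes it a promoter summit, and at the same time in intron 5 (2502 bp) of the longer transcript W06F12.1d.2. The signal was 66.0 in the list from both replicates, 36.4 in replicate 1 and 29.3 in replicate 2, higher in each list than at the exon. The scores were on opposite sides of the threshold in the larger and the conservative lists. The exon peak had 841 in the larger ranked list and 407 in the conservative one, and the promoter peak had 826 and 907. In the larger list, 841 at the exon was just inside the threshold of 830 and 826 at the promoter just outside it. Neither peak passed in a single replicate: the scores were 605 and 92 at the exon and 645 and 160 at the promoter, for replicates 1 and 2.

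The shorter transcript W06F12.1b.1 encodes 462 residues, and the transcripts that begin at the first lit-1 starts encode 601. The internal promoter peak therefore lay beside the start of a shorter protein form. Whether that transcript was made in these animals was not measured. Near the internal starts of W06F12.1a.1 and W06F12.1c.1, ranked promoter peaks had signals of 38.6 and 42.4, and both were matched in replicate 2 alone. Those transcripts encode 634 and 437 residues, so an internal lit-1 start does not always give a shorter form. The remaining internal start, of W06F12.1e.1, had no ranked promoter summit, and the closest of its ranked peaks, 467 bp downstream in an intron, had a signal of 31.9. Of the 44 ranked peaks over lit-1, 4 had a signal of 50 or more, with summits from 15703 to 22114 bp after the first start. Besides the promoter and exon peaks, these were an intronic peak (51.9) and a 3′ UTR peak (50.4). That stretch is bounded by the 4 peaks themselves and also held weaker ranked peaks. Its share of the 44 was not computed, so no grouping of strong peaks can be read. The first start itself had no ranked promoter summit: the closest, 174 bp downstream of the start of W06F12.1d.3, had a signal of 24.7.

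**Figure D1:**
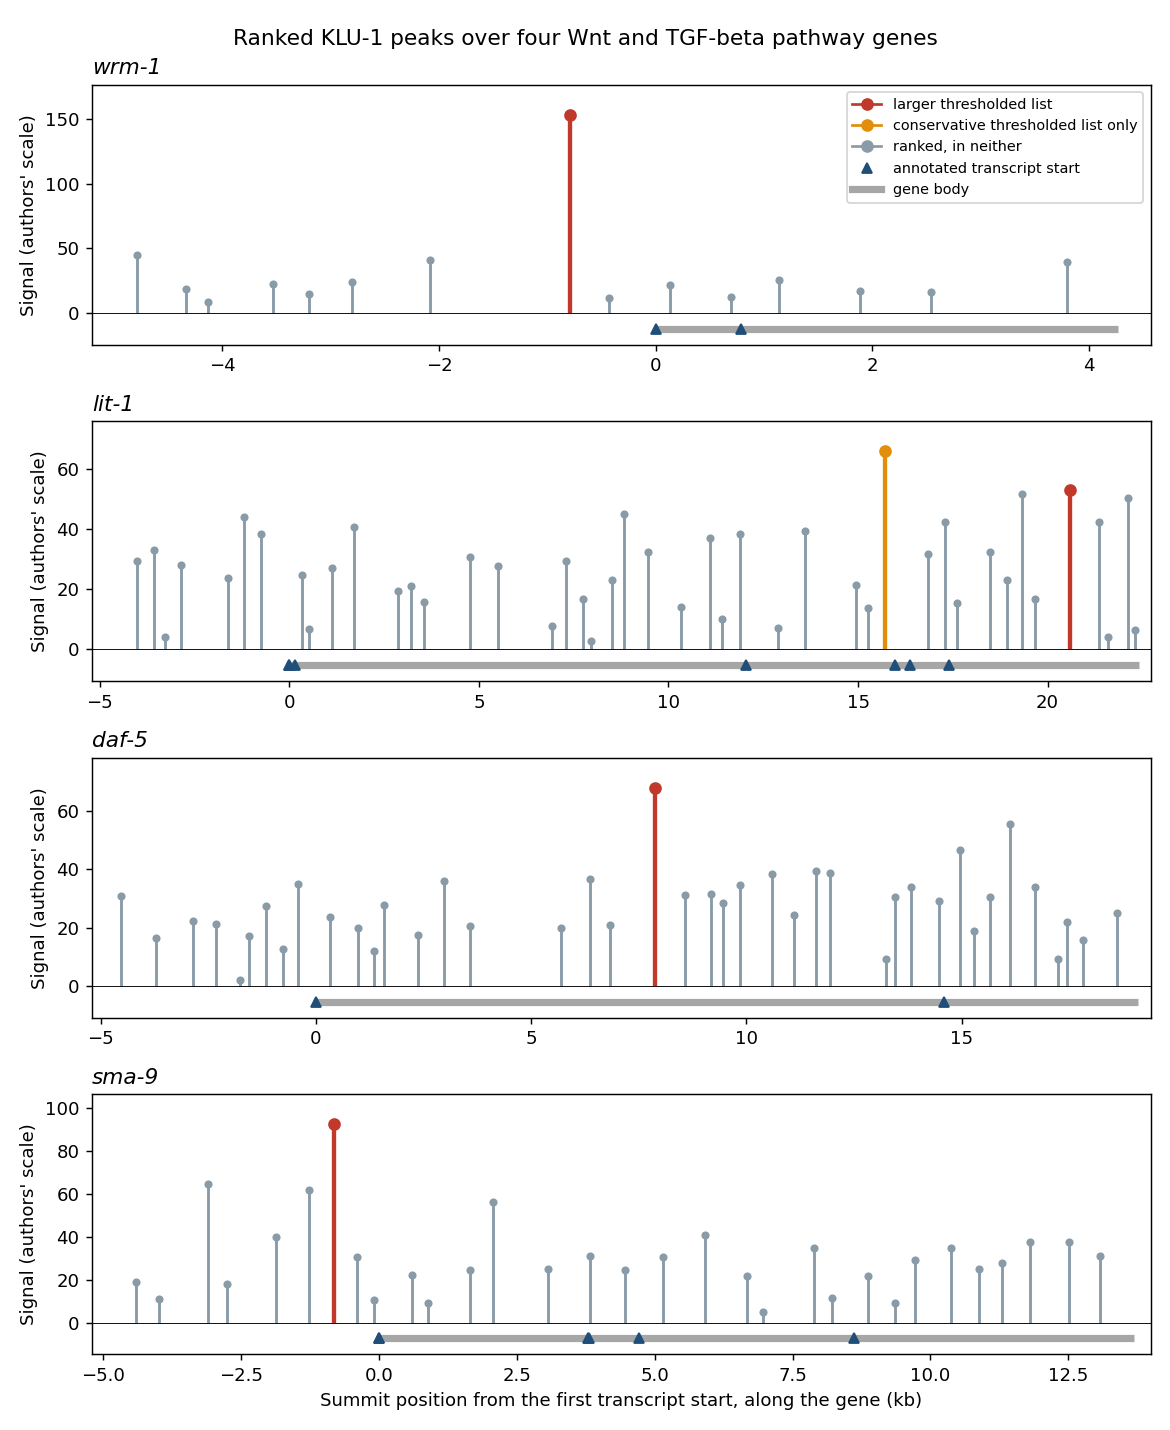
Signal of each ranked peak in the list from both replicates (vertical axis, authors' scale) against summit position from the first transcript start along the gene (horizontal axis, kb), for the 15, 44, 41 and 31 ranked peaks of wrm-1, lit-1, daf-5 and sma-9. Red stems are peaks of the larger thresholded list, the orange stem the lit-1 peak found in the conservative list alone, triangles transcript starts and grey bars gene bodies. The wrm-1 peak at 153.6 stands apart from its neighbours. At lit-1 the orange peak, 66.0, is the highest, and the red peak, 53.3, is close in height to other peaks of the gene.

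The Ski-like gene daf-5 was marked deep inside its first intron. The gene (WBGene00000901) lies on the minus strand at II:14033216 to 14052304. Transcript W01G7.1.2 begins 14583 bp before the start of W01G7.1.1, and both encode 627 residues. The peak, II:14044315 to 14044554, lay in intron 1 of W01G7.1.2, which is 14446 bp long, with the summit 7869 bp after the first start and 6714 bp before the second. Of the 1043 thresholded summits, 63 (6.04%) lay more than 5000 bp from the nearest coding gene start, as this one did. The nearest other coding gene, rpb-11, began 15650 bp from the summit.

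Both replicates placed the daf-5 summit within 3 bp of the pooled position, and neither passed on its own. The signal was 67.8 in the list from both replicates, rank 714 of 1043, with 36.1 in replicate 1 and 34.0 in replicate 2, a ratio of 1.06. The score was 1000 in both pooled ranked lists, 768 in replicate 1 and 307 in replicate 2. The second peak of the 41, in a coding exon 1545 bp downstream of the second start, had a signal of 55.5 and scores of 778 and 519 in the larger and conservative lists. Its order between replicates was reversed, with 18.3 in replicate 1 and 32.6 in replicate 2. Near the first and second daf-5 starts, the ranked promoter peaks had signals of 35.0 and 29.0, below the intronic peak.

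The Schnurri-like gene sma-9 had an upstream peak at nearly the distance seen at wrm-1, with a lower signal. The gene (WBGene00004862) lies on the plus strand at X:10769282 to 10782973, with 16 transcripts from 6 start sites. The peak spanned X:10768353 to 10768592, with the summit 809 bp upstream of the first start. The signal was 92.4 in the list from both replicates, 58.1 in replicate 1 and 36.7 in replicate 2. It ranked 368 of 1043 and, in replicate 1, 254 of 566. Replicate 2 did not pass, with a score of 173 against 1000 in replicate 1, although its summit lay 1 bp from the pooled one.

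At sma-9 further ranked peaks lay on the same side. Summits at 1272 and 3107 bp upstream had signals of 62.0 and 64.7, and scores of 710 and 704 in the larger list and 735 and 824 in the conservative one, all under the threshold. Another ranked peak, in intron 1 of T05A10.1c.1, had a signal of 55.9 and scores of 804 and 790. The largest group of sma-9 transcripts begins 3809 bp after the first start, and the ranked peak there had a signal of 30.8. A ncRNA gene, T05A10.8, lay 399 bp from the strongest summit, and no other annotated gene lay between that summit and sma-9. The neighbouring coding genes were 10321 bp (R07A4.3) and 14454 bp (clc-4) away.

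Across the 4 genes the replicate signals were of the same order. The ratio of replicate 1 to replicate 2 was 1.23 at wrm-1, 0.823 at the lit-1 exon, 1.06 at daf-5 and 1.59 at sma-9. Over the 1003 thresholded peaks matched in both ranked lists, the median ratio was 1.04, and the 10th and 90th percentiles were 0.618 and 1.68. All 4 ratios were inside that range. The pooled lists that chose the genes were made from the same replicates, so the replicate signals are no independent check of the peaks.

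**Figure D2:**
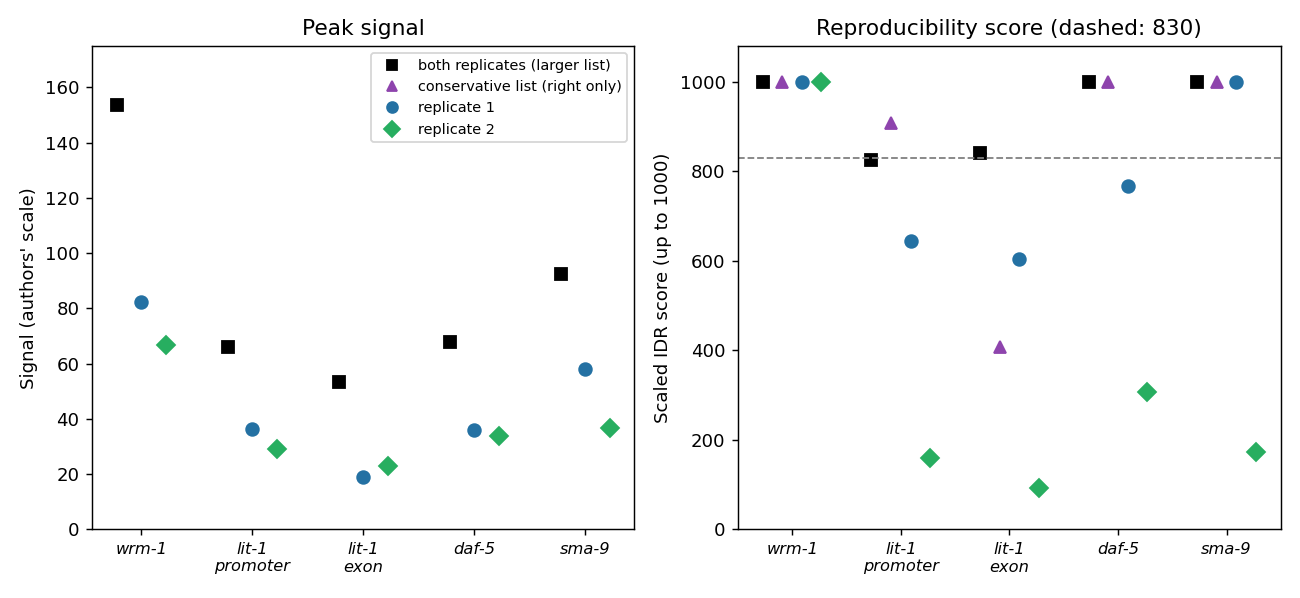
Left, signal (authors' scale) of the 5 described peaks in the list from both replicates and in each replicate. Right, their scaled IDR scores in the larger, conservative and replicate ranked lists, with the dashed line at 830. The wrm-1 scores are 1000 throughout, while those of replicate 2 lie between 92 and 307 at the other 4 peaks.

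**Figure D3:**
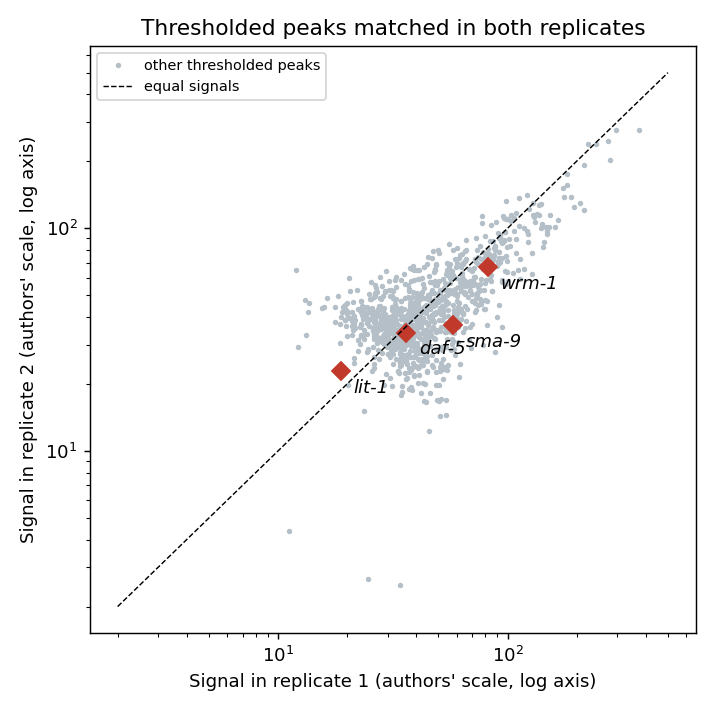
Signal in replicate 2 against signal in replicate 1, both on log axes, for 1003 thresholded peaks matched in both replicate lists (grey) and the peaks of the 4 genes (red), with a dashed line of equal signals. The 4 genes lie within the cloud, from lit-1 at 18.8 and 22.9 to wrm-1 at 82.2 and 66.7.

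The nearest peaks in signal were not pathway genes. By Euclidean distance over log2 signals in the pooled and both replicate lists, the peaks closest to that of wrm-1 were at C45G9.2 and at cap-2, an actin capping protein gene, at distances of 0.0313 and 0.0456. For sma-9 they were at W03C9.5 and epg-9 (0.0354 and 0.0726), for daf-5 at cah-3 and dhhc-2 (0.0622 and 0.0712), and for lit-1 at ZK1240.3 and mnk-1 (0.224 and 0.271).

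No tRNA, snRNA, snoRNA, miRNA or rRNA gene lay within 200 bp of any of the 131 ranked summits in the 4 windows, the 4 thresholded ones included. Over the whole study such a gene lay near 299 of 1043 thresholded summits (28.7%) and 1146 of 128328 ranked summits (0.893%), and with 4 and 131 summits no difference from these shares can be read. None of the 4 thresholded summits was a promoter summit, meaning within 500 bp upstream to 100 bp downstream of a coding transcript start. The wrm-1 and sma-9 summits were intergenic, a class that held 21.3% of the 1043, the daf-5 summit intronic (15.7%) and the lit-1 summit in a coding exon (7.38%). Promoters held 35.2%. At 792 and 809 bp, wrm-1 and sma-9 belonged with the 95 summits (9.11%) whose nearest coding start lay 500 to 1000 bp downstream.

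All 31-base words within 100 bp of each of the 5 described summits occurred once in the genome, as at 627 of the 1043 thresholded summits (60.1%). The 101 bp windows held 50.5% G and C at wrm-1 and at the lit-1 promoter, 48.5% at the lit-1 exon, 54.5% at daf-5 and 56.4% at sma-9. The median was 49.5% over thresholded windows and 38.6% over ranked windows that had not passed.

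Of 8 letter patterns searched on both strands within 50 bp of the summits, GAGAG was present at wrm-1, daf-5 and the lit-1 promoter. It occurred at 32.9% of thresholded summits and 14.8% of ranked summits that had not passed. The daf-5 window also held CTTTGT, a form of the core sequence bound by TCF proteins such as POP-1, across the summit itself. That word was in 2.97% of thresholded and 5.54% of other ranked windows. The lit-1 promoter window held GTCTG 2 times, a word in 15.3% and 11.1% of windows. The other patterns were in none of the 5 windows, namely GTGGG (in 20.5% of thresholded windows), CACCC (15.4%), CTTTGAT (0.767%), GTCTAG (4.99%) and AGATAA (2.21%). The windows of the lit-1 exon and of sma-9 held none of the 8. The patterns GAGAG and the last named can overlap by shared letters, and no match shows that a protein was bound to it.

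Thresholded peaks were also counted over all listed genes of both pathways. Of 30 Wnt genes, 3 had a summit of the larger thresholded list in their window, against 8.35% of all coding genes, and of 24 TGF-beta genes 2 did. These counts include the 4 chosen genes. The remaining hits were 1 of 28 Wnt genes and 0 of 22 TGF-beta genes. In the conservative list the counts were again 3 and 2, against a share of 7.84%. In the list of replicate 1 they were 2 and 1, against 4.81%, and in that of replicate 2 also 2 and 1, against 3.34%. Windows of 20000 bp or more, as at lit-1 (27414 bp) and daf-5 (24089 bp), held a thresholded summit in 80 of 404 genes (19.8%), and windows under 10000 bp, as at wrm-1 (9266 bp), in 7.30%. The sma-9 window of 18692 bp falls in between, where the share was 12.9%. The length classes were set after the data were seen.

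The other Wnt gene was mom-1, which encodes the Porcupine enzyme that acylates Wnt ligands before secretion. One summit lay in an intron 3428 bp downstream of its first start, with a signal of 149.1, rank 123 of 1043, close to that of wrm-1. It passed in both replicates, with 84.9 and 62.0. The second, 772 bp upstream (93.8), lay within 200 bp of a tRNA gene. Both mom-1 summits were nearer to the start of another gene, cest-16 and lev-9. The hit of replicate 2 among TGF-beta genes was unc-40, a DCC-type receptor gene, at 2 summits with signals of 23.9 and 5.33 that lay in a coding exon nearest to npp-7.

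The remaining genes of both lists had no peak in the larger thresholded list, and their ranked peaks are described here. Among Wnt genes without a thresholded peak, the strongest ranked signals were at mom-5, a Frizzled receptor gene (58.8), gsk-3, the kinase of the beta-catenin destruction complex (56.0), the ligand gene lin-44 (54.9) and the Axin-like gene axl-1 (53.3). The TCF gene pop-1 had 40.2 and the beta-catenin genes hmp-2, sys-1 and bar-1 had 50.2, 40.5 and 28.5, against 153.6 at wrm-1. Among TGF-beta genes the ligand genes tig-2 and daf-7 had 63.1 and 49.1, and dbl-1 had 35.4. The Smad genes sma-4, daf-14, sma-3, sma-2, daf-8 and daf-3 ran from 48.1 down to 35.1, and none of these 6 had a thresholded peak in any of the 4 lists. Of all coding genes, 8.35% had one in the larger list, 7.84% in the conservative list, and 4.81% and 3.34% in replicates 1 and 2. With 6 genes no difference from these shares can be read. The gene bra-1 had no ranked peak in its window, like 677 other coding genes. The median of the strongest signal was 44.6 over the Wnt list, 40.9 over the TGF-beta list and 38.7 over all coding genes, whose windows were shorter (median 7027 bp, against 9542.5 and 10375 bp).

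**Figure D4:**
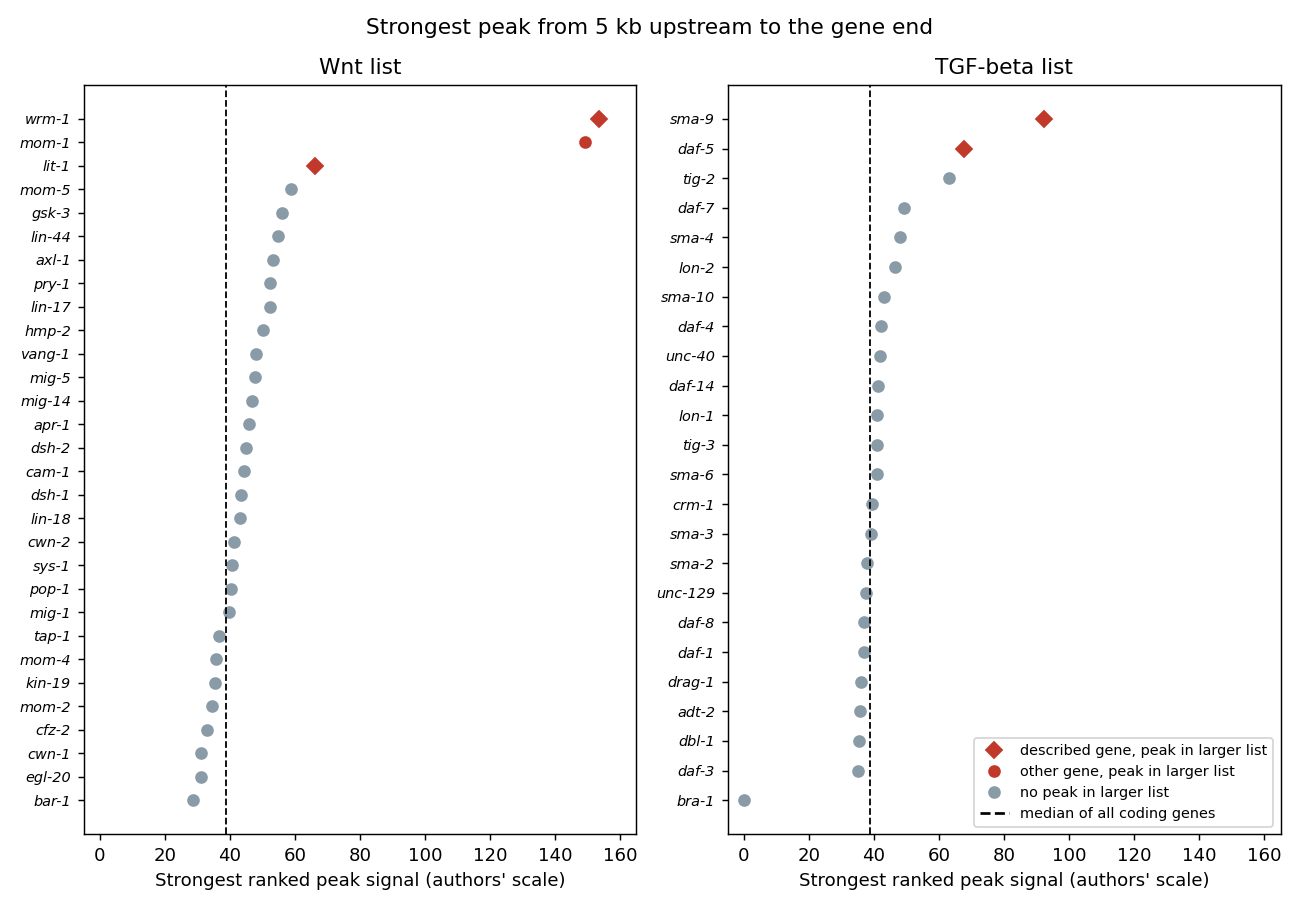
Strongest ranked signal (authors' scale, horizontal axis) between 5000 bp upstream of the first start and the gene end for the 30 Wnt and 24 TGF-beta genes, in order of signal. Diamonds are the 4 described genes, red symbols genes with a peak in the larger thresholded list, and the dashed line the median of 38.7 over all coding genes. The lit-1 diamond is at 66.0, the signal of its promoter peak, which was not in the larger thresholded list. The lit-1 peak in that list had 53.3. Apart from wrm-1, mom-1, lit-1, sma-9 and daf-5, every gene lies at or under 63.1.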

How the data were processed

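KLU-1 binding was measured by chromatin immunoprecipitation and sequencing in 2 replicates of 1 group. The authors deposited peak lists on ce11, per the labels. Each list gives a signal per peak, which the authors deposited on their peak caller's scale, a score that the authors scaled from the IDR, and a summit offset. In their ranked lists the authors deposited the −log10 of the IDR as well. What aligned the reads and called the peaks was not given in the sources used here. Per the deposited descriptions, the authors' lists derive from the alignments and an input of unstated role. Of 1140 ranked peaks past an IDR of 0.01, 97 were absent from the thresholded list and were left out of the motif shares. In each pooled ranked list, 8 columns without a sample name went unused.

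Genes came from Ensembl release 115 and sequence from the RefSeq genome, both of WBcel235, and no peak passed a chromosome end. A peak belonged to a gene if its summit lay from 5000 bp upstream of the first start to the gene end. Pooled and replicate peaks were matched by an overlap of at least 50% of the shorter peak, and signals were not rescaled between lists. Python 3.11.15, NumPy 2.4.6 and Matplotlib 3.10.9 were used, and the window, matching and motif steps were tested on simulated data. Named are the 4 genes, listed pathway genes with a thresholded peak, neighbours of the summits and, per gene, the 2 peaks closest in signal, while further names were picked with their values in view. Members and lists were chosen with earlier results of these data known. No p-value was computed, because the genes were chosen by their peaks and 1 group allows no comparison between groups.

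The alternatives were the conservative list, single replicates, stronger peaks, and other windows, gene assignments, matching rules, promoter limits and distances.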

Additional observations from a re-analysis of the deposited data

How the results depend on the processing

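No paired analysis was possible because the series has 1 group. Of the 4 genes, 1 had a thresholded peak in the list of replicate 2 alone (wrm-1) and 2 in that of replicate 1 (wrm-1 and sma-9), while the TGF-beta list had 1 hit in each. Among peaks at or above the median signal, 2 of the 4 genes and 1 TGF-beta gene had one. With a window from 10000 bp upstream, 4 TGF-beta genes had one, since sma-2 and sma-3 were added. So did 4 Wnt genes in place of 3, with mom-2 added, and daf-5 gained a second. Each of these added summits was nearest to the start of another gene. That gene was pdhk-2 for sma-2, K04C2.3 for sma-3, srsx-22 for mom-2 and rpb-11 for daf-5. The summit added at mom-2 also lay within 200 bp of a snoRNA gene. The share of all coding genes was 7.84% in the conservative list, 3.34 to 4.81% in single replicates, 4.64% for stronger peaks, 4.54%, 5.60% and 12.3% with 1000, 2000 and 10000 bp upstream, and 4.08% where the summit had to be nearest to the gene, which left 2 Wnt genes, without mom-1, and 2 TGF-beta genes. With promoters drawn to 1000 bp upstream, 2 of the 4 summits (wrm-1 and sma-9) were promoter summits, against 0. The promoter share of all thresholded summits was 35.2% with the limit of 500 bp and was not computed for 1000 bp. With motif windows of 100 bp each side, 4 of the 4 summits held at least 1 of the 8 patterns, against 2. At that width GAGAG alone was in 48.6% of thresholded windows and 26.2% of ranked windows that had not passed. The share of all windows with any of the 8 was not computed, so the count only describes these summits. In the conservative list all 4 genes kept a peak, at lit-1 a different one. Matching by any overlap or by summits within 100 bp left all 8 replicate signals as they were. No tRNA, snRNA, snoRNA, miRNA or rRNA gene lay within 500 bp of the 4 thresholded summits. The ncRNA gene T05A10.8, 399 bp from the sma-9 summit, is not of these types. The share of all summits with such a gene within 500 bp was not computed. Of 48 single-gene values under the alternatives, 40 stayed and 8 moved. All that moved were counts of thresholded peaks. Those that stayed include every replicate signal under the other matching rules. They also include the lit-1 count in the conservative list, which was again 1 but came from a different peak. Depth is unknown, so what it limits could not be derived.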

Other observations

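The sma-9 window held 4 ranked peaks with a signal of 50 or more, the lit-1 window 4, the daf-5 window 2 and the wrm-1 window 1. These windows differ in length, at 18692, 27414, 24089 and 9266 bp, and held 31, 44, 41 and 15 ranked peaks. The weakest of these peaks, at 50.4 in lit-1, ranked 2552 of 128328 by signal. The exact share of all ranked peaks at 50 or more was not computed. The counts include the peaks that chose the genes, so no difference is read from them. Intronic ranked peaks numbered 27 of 44 at lit-1, 26 of 41 at daf-5, 10 of 31 at sma-9 and 1 of 15 at wrm-1. The intronic share of all ranked peaks was not computed. Of the 44 ranked peaks over lit-1, 13 were matched in both replicates, 12 in replicate 1 alone and 15 in replicate 2 alone. At daf-5 these counts were 13, 8 and 14 of 41, at sma-9 13, 6 and 5 of 31 and at wrm-1 7, 0 and 3 of 15. The ranked lists of replicates 1 and 2 differ in size, with 65693 and 95500 peaks. Matched shares of all ranked peaks were not computed, so nothing particular to these genes can be read from the counts. In the ranked lists of replicates 1 and 2 themselves, the lit-1 window held 27 and 32 summits, that of wrm-1 8 and 10, that of daf-5 25 and 32 and that of sma-9 28 and 22.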
